A study of Mus musculus with 27 samples.

Results

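The RNA response that 12 mouse thyroid tumor cell lines share when their RAF and MEK kinases are inhibited is described here. Each line was measured in vehicle and under CH5126766 (CKI), a compound that inhibits both RAF and MEK, so 24 of the 27 libraries of the series enter, as 12 pairs. The other 3 libraries, marked wildtype and untreated, have no treated partner and were not used. All 12 lines carry the Braf allele V600E, and they fall into 4 genotypes with 3 lines each: the mutant Braf alone (Braf), or together with a KO, that is a knockout, of 1 gene for a subunit of SWI/SNF, the complex that slides and evicts nucleosomes: Arid1a, Arid2 or Smarcb1. In the text the lines are named by the identifier that ends the sample title: B47275, B48051 and B52482 (Braf), BA45198, BA47473 and BA49112 (Arid1a KO), AB51189, AB52980 and AB55694 (Arid2 KO), and BS53736, BS53958 and BS53965 (Smarcb1 KO). The lines had 8 days of CKI at 300 nM. Bovine TSH, the pituitary hormone that stimulates thyroid cells, is also mentioned in the labels, but the wording does not settle whether the vehicle arm (Trappsol) also had it, so an effect of CKI and an effect of TSH cannot be told apart. The lines were grown out of minced and digested tumors, and the labels do not say whether each came from a different mouse, how the mutant allele is driven, or whether a line is 1 clone. The p-values therefore measure the spread among these 12 lines.

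In the MAP kinase cascade, RAF phosphorylates MEK and MEK phosphorylates ERK, and mutant Braf drives the cascade without a signal from RAS. Active ERK induces Ets and AP-1 transcription factors and Ccnd1, which encodes cyclin D1, and it also induces its own inhibitors of the Dusp, Sprouty and Spred families. In the thyroid follicular cell, strong ERK signaling is known to go with loss of the genes for thyroglobulin, the TSH receptor and iodide handling, and inhibitors of the cascade are used in an attempt to bring those genes back.

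A gene's change in a line is its log2 CPM under CKI minus its log2 CPM in vehicle, where CPM is the gene's count relative to the scaled total of its library. The common effect is the log2 change fitted over all 12 lines with the line as a block, given with its standard error, and a gene was called at an adjusted p under 0.05. Of 15634 genes tested, 6571 were called (42%), 3356 higher (21.5%) and 3215 lower (20.6%). Of these, 615 were higher under CKI in all 12 lines (3.93% of the genes tested) and 745 were lower in all 12 (4.77%), so 20.7% of the called genes moved the same way in every line. No gene moved one way in all 12 lines without being called. Lines BS53958 and BS53965 have shallow CKI libraries, and without both of them 1286 called genes were higher and 1193 lower in each of the other 10 lines. The median common effect was 0.90 among the 615 genes and -0.63 among the 745, against 0.03 over all genes tested. In 12 of 12 lines the shared change exceeded 2-fold for 16 genes higher (0.102%) and 14 lower (0.0895%). Counts of called members in the gene lists below are to be read against the 21.5% higher and 20.6% lower of all genes tested.

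**Figure D1:**
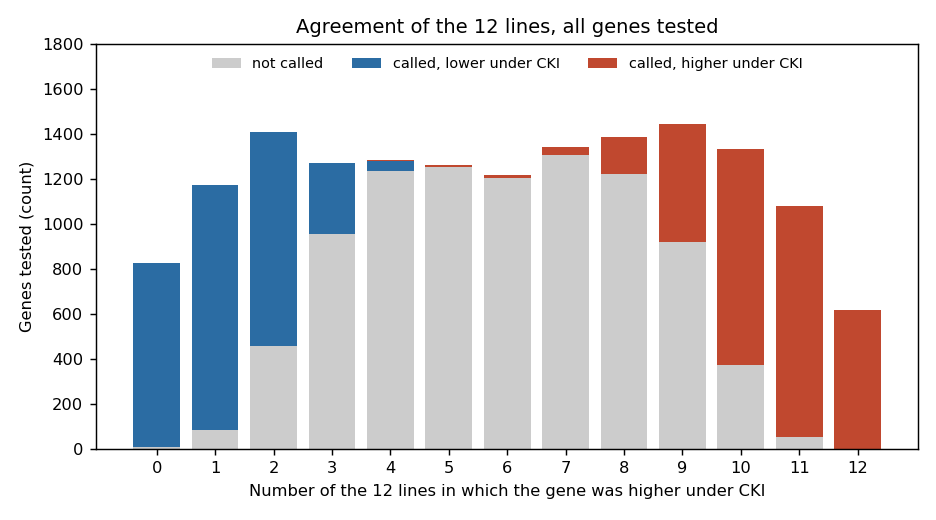
Number of the 12 lines in which a gene was higher under CKI (x axis), against the number of genes tested (y axis), with called genes in color and genes not called in grey. The bar at 12 lines holds the 615 shared rises. The bar at 0 lines holds 824 genes, more than the 745 shared falls, because a gene with no counts in either library of a line is neither higher nor lower there.

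Total counts lay between 18417255 and 27257703 in 22 libraries, and the CKI libraries of BS53958 (11684983) and BS53965 (2884130) were shallower. Totals, the number of genes with a count and the mitochondrial share of counts did not differ between the arms beyond the spread among lines (adjusted p = 0.833, 0.833 and 0.315, exact sign-flip permutation tests over 12 lines, two-sided, adjusted over 4 measures). The share of counts held by the 50 largest genes was lower under CKI in 12 of 12 lines, with a mean of 13.8% ± 0.531 against 16.1% ± 1.80 in vehicle (SD, n = 12, exact permutation p = 0.000488, the smallest that 12 lines can give, adjusted p = 0.00195). The knockout labels were checked on the targeted genes. Smarcb1 was at 0.471 ± 0.628 CPM in its 3 KO lines in vehicle against 75.9 ± 9.28 in the Braf lines (SD, n = 3), and Arid1a was at 81.8 ± 14.7 against 134 ± 3.43. Arid2 was at 95.8 ± 14.6 CPM in its KO lines and 98.9 ± 10.3 in the Braf lines, so total counts of that gene did not separate the labels.

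The 12 largest shared rises held a calcium channel gene, receptor genes and several genes for secreted proteins. They were ranked by the change in the line where each gene moved least, among genes whose log2 CPM averaged 2 or more, and the plot of the largest shared changes shows 11 of the 12 rises and the 12 falls. Cacna1g, which encodes a T-type calcium channel, was at 0 to 1.25 CPM in vehicle (median 0.132) and at 0.619 to 57.5 CPM under CKI (median 6.11). Its common effect was 5.65 ± 0.49, adjusted p = 1.82e-05, and the smallest change was 2.28, in BA45198. Ccdc80, a secreted protein of the extracellular matrix, went from a median of 10.9 CPM (range 0 to 56 CPM) to a median of 227 (0.337 to 1214 CPM), an effect of 5.27 ± 0.57, adjusted p = 8.75e-05. For both genes the ranges of the arms overlapped, and every line was higher under CKI. The lowest vehicle levels of both genes and the lowest CKI level of Ccdc80 rest on few or no reads.

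Lrp2 encodes megalin, the endocytic receptor that takes up thyroglobulin, and it had the largest common effect of the 12 rises, 6.18 ± 0.62, adjusted p = 5.42e-05. It was at 0.0874 to 4.33 CPM in vehicle (median 0.309) and at 0.697 to 478 CPM under CKI (median 31.5). The 3 Smarcb1 KO lines held the 3 lowest CKI levels, 0.697, 1.09 and 0.899 CPM, which still were above the vehicle levels of the same lines. The last, in BS53965, comes from a library of 2884130 counts and rests on a few reads, as does that line's rise. Fgfr2, a receptor for fibroblast growth factors, rose from a median of 0.736 CPM (0 to 14.8 CPM) to 26.4 (0.842 to 89.8 CPM), an effect of 4.52 ± 0.45. The growth factor gene Tgfb2 rose from a median of 14.5 to 95.4 CPM (2.49 ± 0.22, adjusted p = 2.21e-05). Its smallest change was 1.25, in BS53958.

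Serpinb9, an inhibitor of granzyme B, rose by 2.99 ± 0.40. Among secreted proteins, Ogn (osteoglycin, a small proteoglycan) rose by 3.98 ± 0.43 and Col5a2, a chain of type V collagen, by 2.53 ± 0.24. C1ra, a protease of the complement system, rose by 3.40 ± 0.50 and Lbp, the lipopolysaccharide binding protein, by 4.01 ± 0.70. Pmp2, a fatty acid binding protein first known from myelin, rose by 5.80 ± 0.81 and was at 0 to 11.4 CPM in vehicle. The adjusted p of these 6 genes lay between 4.65e-05 (Col5a2) and 0.00103 (Lbp), and no effect of theirs was seen to differ among the genotypes (smallest adjusted p of that test 0.089, Serpinb9).

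The largest shared falls held a secreted phosphoprotein, membrane proteins and enzymes of sugar chain synthesis. Spp1, which encodes osteopontin, was among the most abundant transcripts of these lines. It was at 7609 to 90620 CPM in vehicle (median 25080) and at 260.2 to 6495 CPM under CKI (median 686), and the 12 vehicle libraries did not overlap the 12 CKI libraries. Its common effect was -4.92 ± 0.54, adjusted p = 0.000102. BS53958 kept the highest CKI level and had the smallest change, -1.26, whereas the changes of the other lines lay between -1.99 and -6.69.

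Cd53, a tetraspanin best known from leukocytes, had the largest change in its weakest line of all falls, -2.65 in BS53965. It was at 3.68 to 419 CPM in vehicle and at 0 to 22.9 CPM under CKI, with an effect of -4.83 ± 0.41, adjusted p = 1.61e-05. Fer1l6, a member of the ferlin family of membrane proteins, had an effect of -5.95 ± 0.42, from a median of 12.7 to 0.113 CPM. Steap3, a ferrireductase of endosomes that serves iron uptake, fell from a median of 37.1 CPM to 4.69 (-2.94 ± 0.23, adjusted p = 9.11e-06). AA467197, which encodes a small mitochondrial protein, had an effect of -4.94 ± 0.48, and it is 1 of the few shared genes whose response differed among the genotypes. The cation channel gene Trpa1 had an effect of -5.42 ± 0.76 and the organic anion transporter gene Slco4a1 of -4.20 ± 0.75.

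Csgalnact1, which starts chondroitin sulfate chains, and Ndst3, which modifies heparan sulfate, had effects of -2.82 ± 0.27 and -3.47 ± 0.55. Upp1, a uridine phosphorylase, had one of -4.06 ± 0.75. Dagla, a lipase that makes the endocannabinoid 2-arachidonoylglycerol, was lower in 12 lines as well. Its common effect was -1.47 ± 0.11, adjusted p = 9.11e-06, and the change in single lines lay between -1.05 and -2.08. Etv4, an Ets factor that ERK induces, completes the 12 falls and is described with the ERK genes.

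**Figure D2:**
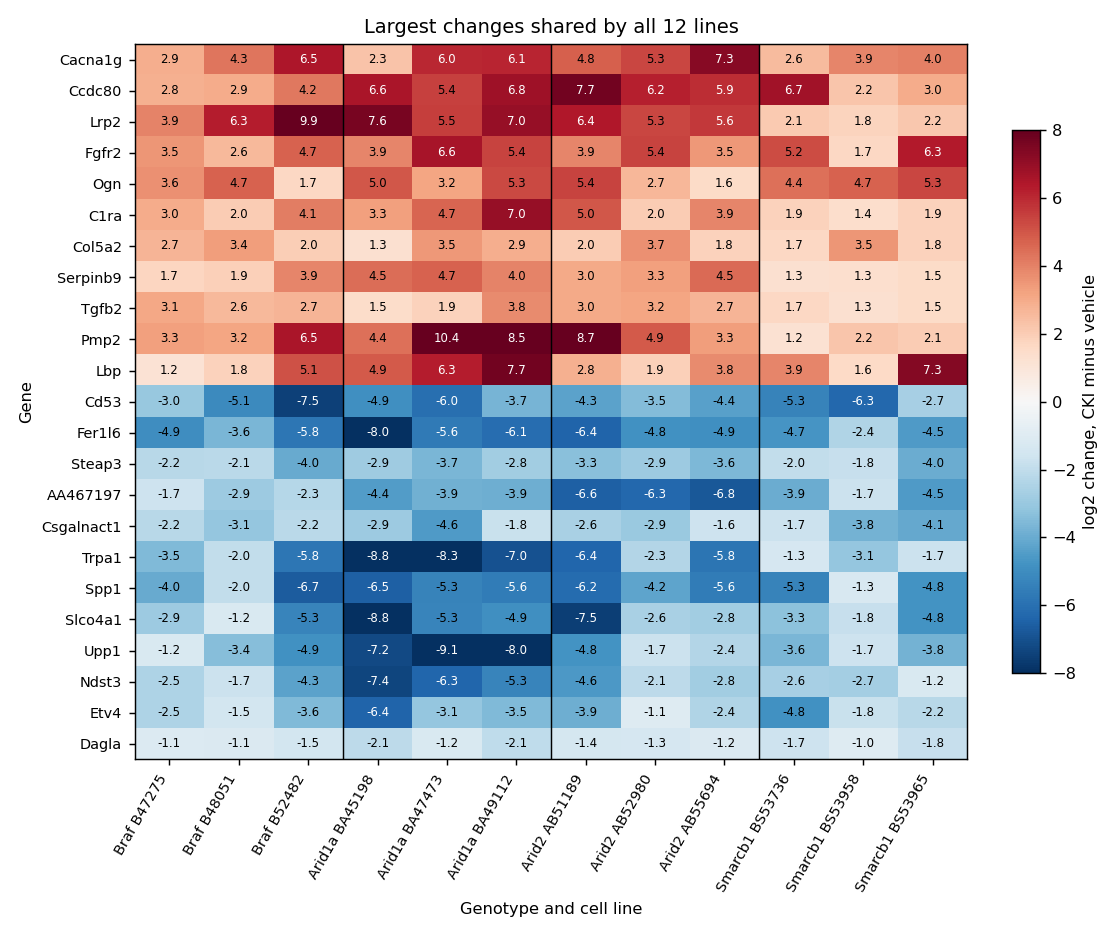
Log2 change (CKI minus vehicle, color and printed value) of 11 of the 12 rises and the 12 falls with the largest change in their weakest line (rows), in each of the 12 lines (columns, by genotype). Every cell of the upper block is positive and every cell of the lower block negative, with the palest cells most often in BS53958.

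The promoters of the first 3 rises and the first 3 falls of the ranking that have an entry in the RefSeq promoter table are printed to show the letters next to the starts of genes that moved in every line. Each runs 5′ to 3′ on the strand of the gene, from 250 bases before to 50 bases after the start, in GRCm38.p6, which is not the build of the counts. Capitals mark matches to the motifs searched on both strands.
Lrp2, chr2:69585980-69586279, minus strand: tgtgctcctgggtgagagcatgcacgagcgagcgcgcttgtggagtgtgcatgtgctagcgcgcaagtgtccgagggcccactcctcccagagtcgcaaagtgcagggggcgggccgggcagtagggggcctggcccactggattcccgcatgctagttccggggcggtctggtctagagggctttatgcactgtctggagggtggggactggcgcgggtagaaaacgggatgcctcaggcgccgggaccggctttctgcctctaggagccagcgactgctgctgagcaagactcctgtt
Fgfr2, chr7:130266759-130267058, minus strand: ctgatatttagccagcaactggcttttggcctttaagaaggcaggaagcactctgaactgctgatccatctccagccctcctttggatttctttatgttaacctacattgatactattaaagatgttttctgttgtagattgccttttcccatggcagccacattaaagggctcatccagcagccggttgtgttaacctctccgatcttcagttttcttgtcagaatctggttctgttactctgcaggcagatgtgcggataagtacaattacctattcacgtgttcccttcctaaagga
Ogn, chr13:49607765-49608064, plus strand: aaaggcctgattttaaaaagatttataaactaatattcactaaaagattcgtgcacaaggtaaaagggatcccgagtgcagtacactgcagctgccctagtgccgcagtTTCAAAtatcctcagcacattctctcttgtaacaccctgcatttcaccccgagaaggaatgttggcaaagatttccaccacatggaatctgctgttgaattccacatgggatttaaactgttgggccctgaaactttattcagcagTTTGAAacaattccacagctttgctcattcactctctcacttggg
Cd53, chr3:106790100-106790399, minus strand: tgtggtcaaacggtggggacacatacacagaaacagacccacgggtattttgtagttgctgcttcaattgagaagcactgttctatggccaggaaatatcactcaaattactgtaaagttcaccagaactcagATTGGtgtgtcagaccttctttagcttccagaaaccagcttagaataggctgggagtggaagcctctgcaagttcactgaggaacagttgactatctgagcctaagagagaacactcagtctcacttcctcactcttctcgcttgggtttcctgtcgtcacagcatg
Steap3, chr1:120271031-120271330, minus strand: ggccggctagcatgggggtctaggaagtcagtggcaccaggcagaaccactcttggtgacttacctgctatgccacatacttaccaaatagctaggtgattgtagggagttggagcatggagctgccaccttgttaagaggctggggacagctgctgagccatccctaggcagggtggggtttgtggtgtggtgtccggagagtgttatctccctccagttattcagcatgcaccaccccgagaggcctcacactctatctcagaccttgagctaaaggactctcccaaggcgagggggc
AA467197, chr2:122637637-122637936, plus strand: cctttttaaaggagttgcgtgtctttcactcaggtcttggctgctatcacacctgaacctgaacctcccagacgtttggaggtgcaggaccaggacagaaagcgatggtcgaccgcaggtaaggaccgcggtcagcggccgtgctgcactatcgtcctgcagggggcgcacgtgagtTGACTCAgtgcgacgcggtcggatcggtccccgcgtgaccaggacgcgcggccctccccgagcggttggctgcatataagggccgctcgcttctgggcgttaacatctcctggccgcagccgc

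The capitals in Ogn are 2 matches to the cell cycle motif CHR (TTTGAA), 1 on each strand. The capitals in Cd53 are a CCAAT box on the opposite strand, and those in AA467197 are an AP-1 motif. Lrp2, Fgfr2 and the Steap3 entry shown, the first of 4 for that gene, hold none of the motifs in this window. The AP-1 motif (TGAGTCA on either strand, which reads TGACTCA on the other) was in 4.68% of the 727 promoters of shared falls, 4.38% of the 616 promoters of shared rises and 3.98% of the 14637 promoters of all genes tested. The Ets motif CCGGAAG was in 22.6% of promoters of shared falls, 11.4% of those of shared rises and 15.7% of all tested. CCAAT was in 37.7%, 37.2% and 37.2%, and CHR in 9.9%, 9.9% and 12.1%. The CRE (TGACGTCA) was in 2.75%, 3.41% and 2.95%, E2F motifs (TTTCCCGC or TTTGGCGC) in 3.71%, 1.95% and 2.68%, the E-box GTCACGTG in 4.81%, 4.38% and 3.77%, and the CArG box in 1.51%, 2.27% and 1.35%. The motifs can overlap one another, promoters of 1 gene can overlap, and a match is a description of letters, not a bound site.

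Of 37 named genes that were lower in all 12 lines, 24 have a promoter entry and 3 of those 24 hold the Ets motif. That count is not above the 15.7% of promoters of all genes tested, so the named falls were not rich in the motif. The 3 matches are shown with 20 bases on each side or up to the end of the entry. In Spp1 the motif lies on the opposite strand.
Polr1c, chr17:46248061-46248107, minus strand: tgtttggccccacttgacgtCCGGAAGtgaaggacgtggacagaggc
Rasa1, chr13:85289515-85289561, minus strand: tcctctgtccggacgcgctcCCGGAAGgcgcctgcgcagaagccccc
Spp1, chr5:104434861-104434903, plus strand: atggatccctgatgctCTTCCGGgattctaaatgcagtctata

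Apart from the ranking, 13 genes had no overlap between the 12 vehicle and the 12 CKI libraries in CPM, 6 of them higher (0.0384% of genes tested) and 7 lower (0.0448%). They are named after their values were seen. Besides Spp1, the lower genes were Acsl4, which activates arachidonic acid and other long-chain fatty acids, Tnfrsf23, a decoy receptor for the death ligand TRAIL, Ints3, a subunit of the Integrator complex, Rpl13a, a ribosomal protein, Gnb2l1, which encodes the ribosomal scaffold protein RACK1, and the unnamed locus Gm10736. Acsl4 was at 109 to 285 CPM in vehicle and at 51.5 to 108 CPM under CKI (-1.44 ± 0.15). Tnfrsf23 was at 38.7 to 151 CPM and then at 8.55 to 33.5 CPM (-1.82 ± 0.24). The higher genes were Fosl2, an AP-1 subunit, Ttc28, Wdfy3, a large scaffold protein of selective autophagy, Kdm4c, a histone demethylase, Trip6, an adaptor of cell adhesions, and Col23a1, a transmembrane collagen. Ttc28 was at 29.1 to 74 CPM in vehicle and at 85.8 to 216 CPM under CKI (1.59 ± 0.13), and Wdfy3 was at 137 to 208 CPM and then at 211 to 307 CPM (0.58 ± 0.06).

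Among the direct readouts of the pathway, the Ets factor genes Etv1, Etv4 and Etv5 and several of the feedback inhibitors fell. Of 24 genes of ERK output and feedback, 14 fell and 4 rose, and 7 were lower and 1 higher in all 12 lines. The list's median was -0.83, against 0.03 over all genes tested. Etv4 was at 37.4 to 188 CPM in vehicle (median 104) and at 1.52 to 46.6 CPM under CKI (median 13.7), and 2 lines, BA45198 and BS53736, fell to 2.13 and 1.52 CPM. Its common effect was -3.00 ± 0.43, adjusted p = 0.000353. The related Ets gene Etv5 was lower in 12 lines (-1.42 ± 0.18) and Etv1 in 11 (-1.40 ± 0.26).

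Spry4, which encodes a Sprouty inhibitor of receptor signaling to RAS, was at 9.37 to 496 CPM in vehicle (median 138) and 2.31 to 206 CPM under CKI (median 12.7), an effect of -2.41 ± 0.29, adjusted p = 0.00016. Spred2 (-0.68 ± 0.11) and Spred3 (-1.03 ± 0.14), inhibitors of RAF activation by RAS, were also lower in 12 lines. Spry2 was lower in 11 lines (-0.97 ± 0.22). The ERK phosphatase gene Dusp6 was lower in 11 of 12 lines (-1.51 ± 0.21, adjusted p = 0.000341), and its exception was BS53736 (0.44). Dusp4, a nuclear phosphatase of ERK, was lower in 11 lines (-2.04 ± 0.26), with BS53958 (0.03) as the exception. Dusp5 (-0.68 ± 0.26), Spry1 (0.57 ± 0.26) and Spred1 (-0.05 ± 0.13) did not pass the test.

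Ccnd1 was at 1244 to 3307 CPM in vehicle (median 2214) and at 72.5 to 1923 CPM under CKI (median 473), lower in 12 of 12 lines with an effect of -2.11 ± 0.36, adjusted p = 0.000898. The size varied from -0.08 in BS53958 to -4.96 in AB51189, where the CKI level was 72.5 CPM. Mmp10, a secreted matrix protease, was lower in all 12 lines from a low level (-2.94 ± 0.66). The proto-oncogene Myc had an effect of -0.54 ± 0.19, adjusted p = 0.0335 and was lower in 10 lines. Epha2, an ephrin receptor, was lower in 10 lines (-0.57 ± 0.19).

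Not all immediate early genes fell. Fos was at 0.716 to 22.8 CPM in vehicle (median 2.14) and at 2.27 to 62.3 CPM under CKI (median 12.7), higher in all 12 lines with an effect of 1.81 ± 0.41, adjusted p = 0.0040. Egr1 rose in 9 lines (0.64 ± 0.22). The receptor genes Epha4 (1.68 ± 0.58) and Il1rl1 (2.41 ± 0.78) were the other 2 rises of the list. Egr3 (-1.13 ± 0.47), Ier3 (0.36 ± 0.56) and Phlda1 (0.06 ± 0.26) did not pass the test.

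**Figure D3:**
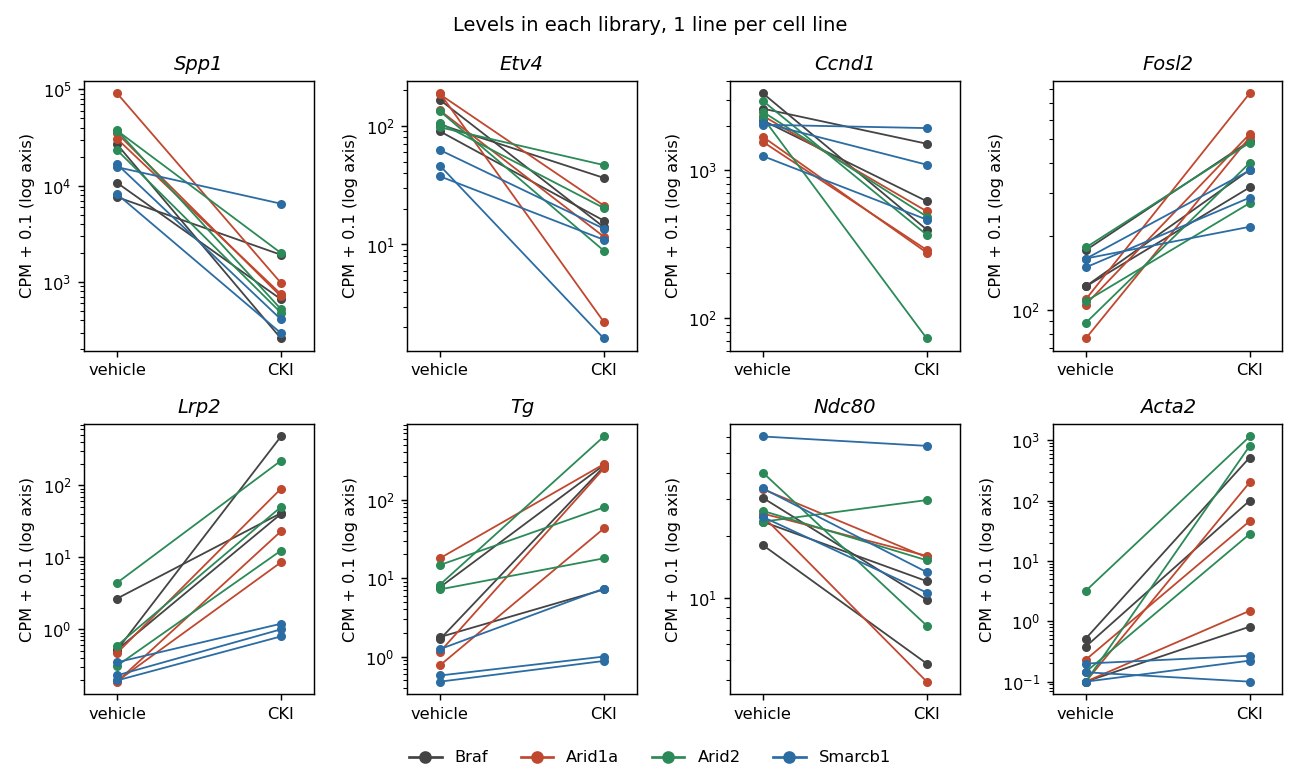
CPM plus 0.1 on a log axis for 8 genes in vehicle and under CKI, with a line joining the 2 libraries of each cell line and colors for the genotypes. Spp1, Etv4 and Ccnd1 slope down and Fosl2, Lrp2 and Tg slope up in every line, Ndc80 rises in AB52980 only, and Acta2 rises steeply in most lines but not in the 3 Smarcb1 KO lines.

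Of 8 AP-1 subunits tested, 4 rose and 2 fell, against 21.5% and 20.6% of all genes tested. Fosl2 was at 76.3 to 180 CPM in vehicle (median 125) and at 219 to 771 CPM under CKI (median 387), with no overlap of the arms and an effect of 1.65 ± 0.20, adjusted p = 0.000168. Atf3, a stress-induced partner, was higher in 12 lines (1.66 ± 0.27) and Junb in 10 (0.71 ± 0.18). Fosl1, an AP-1 subunit that ERK induces, was lower in 11 lines (-1.95 ± 0.37, adjusted p = 0.0017). Jun was lower in 11 (-0.75 ± 0.22). Within the Fos family, then, Fos and Fosl2 rose while Fosl1 fell.

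The kinases and regulators of the cascade itself gave calls in both directions. Of 22 core genes, 4 rose and 6 fell, against 21.5% and 20.6% of all genes tested, with a median of 0.02. Braf was at 45.1 to 76.4 CPM in vehicle and at 51.2 to 146 CPM under CKI, higher in 12 of 12 lines (0.53 ± 0.09, adjusted p = 0.000768). Rasa1, a GTPase activator that turns RAS off, was lower in 12 lines (-0.84 ± 0.15) and the MEK gene Map2k1 in 11 (-0.43 ± 0.09). The ERK gene Mapk3 (0.02 ± 0.08) did not pass the test.

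Upstream of the cascade, 12 of 26 receptor tyrosine kinases and ligands tested rose and 1, Axl, fell (-0.76 ± 0.21), against 21.5% and 20.6% of all genes. Fgfr2, described above, Nrg1 and Igf2 were higher in all 12 lines. Nrg1, a ligand of the receptors ERBB3 and ERBB4, was at 8.93 to 160 CPM in vehicle and 29.6 to 320.1 CPM under CKI (1.76 ± 0.26, adjusted p = 0.000481). Igf2, an insulin-like growth factor, rose from a median of 0.775 to 6.05 CPM (1.88 ± 0.45). Its relative Igf1 had a larger effect, 6.14 ± 0.93, but rose in 9 lines only and was lower in 3. Egfr (1.42 ± 0.38) and Fgfr3 (1.63 ± 0.40) each rose in 11 lines, Erbb2 in 10 (0.31 ± 0.09), and Erbb3 (-0.77 ± 0.30) and Met (-0.58 ± 0.28) did not pass the test.

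The cell cycle genes fell in the common fit but not in every line. All 26 mitosis genes tested were called lower, with a median of -1.09, and none was lower in all 12 lines. In AB52980 all 26 were higher under CKI (median change 0.73), and in BS53958 23 of 26 were higher (median 0.16). In the other 10 lines all 26 were lower, with medians between -2.69 (BA45198) and -0.72 (BA49112). Ndc80, a kinetochore protein, was at 17.9 to 60.1 CPM in vehicle (median 25.8) and 3.83 to 54.1 CPM under CKI (median 12.6), lower in 11 lines (-1.21 ± 0.24, adjusted p = 0.00219). Ccnb2 (cyclin B2, -1.25 ± 0.25), Cenpf (a kinetochore protein, -1.29 ± 0.26) and Aurka (a spindle kinase, -1.20 ± 0.25) were lower in 10, 10 and 11 lines.

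For G1/S and DNA replication, 29 of 30 genes fell, with a median of -0.85, and Rrm1 was the member not called (-0.46 ± 0.19). AB52980 again went the other way, with 26 of 30 genes higher, and in BS53958 12 of 30 were higher. Without AB52980, 16 of the 30 were lower in each of the other 11 lines, against 3 with it. Those 3 were E2f2, a transcription factor of replication genes, Ccne2 (cyclin E2) and Cdt1, which licenses replication origins. E2f2 was at 3.58 to 50.4 CPM in vehicle and 0.878 to 24.2 CPM under CKI (-1.43 ± 0.21, adjusted p = 0.000366). Cdt1 went from a median of 44.9 to 13.3 CPM (-1.42 ± 0.24) and Ccne2 from 25 to 10.9 (-1.20 ± 0.19). Dut, the enzyme that clears dUTP, was lower in 11 lines (-1.33 ± 0.18).

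Of 15 genes in a list of CDK inhibitors and genes tied to leaving the cycle, 8 rose and 3 fell, none in all 12 lines. The list also holds cyclin D genes, which encode drivers of cycling, so its count is no measure of exit. Among them, Ccnd2 rose in 10 lines (0.96 ± 0.29, adjusted p = 0.0171). Ccnd3, a cyclin D that differs from Ccnd1 in its regulation, rose in 11 lines (0.96 ± 0.19), as did the retinoblastoma family genes Rb1 (0.46 ± 0.09) and Rbl2 (0.66 ± 0.15). Rbl1, the member of that family that is itself induced in S phase, fell (-0.67 ± 0.16). Cdkn1b rose (0.58 ± 0.20), and Cdkn1a (0.07 ± 0.17) and Cdkn2a (0.19 ± 0.13) did not pass the test.

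Genes for building ribosomes fell in most lines by a modest amount. Of 24 genes of ribosome biogenesis, 23 fell, with a median of -0.57, and 14 were lower in all 12 lines. Under the other scaling of the libraries (RLE), 22 fell and 8 were lower in all 12 lines. Polr1c, a subunit of RNA polymerases I and III, was at 28.1 to 58.2 CPM in vehicle and 24.2 to 50.5 CPM under CKI (-0.53 ± 0.07, adjusted p = 0.000345). Npm1, which encodes nucleophosmin, went from a median of 916 to 431 CPM (-0.73 ± 0.14). Nob1, which trims the small subunit RNA, had an effect of -0.49 ± 0.09, and Bop1, of the large subunit pathway, of -0.60 ± 0.12. The list's median change was -0.04 to -0.22 in the 3 Smarcb1 KO lines, and AB55694 (-0.19), AB52980 (-0.23) and B48051 (-0.27) were close to these, whereas AB51189 (-1.44) and BA49112 (-1.37) had the largest falls.

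Glycolysis genes fell in most lines. Of 22 glycolysis and hypoxia genes, 17 fell and 1 rose, with a median of -1.01, and 8 were lower and 1 higher in all 12 lines. Without BS53958, 13 were lower in every line left. Under RLE scaling 17 fell and 7 were lower in all 12 lines. Pdk1, the kinase that holds pyruvate dehydrogenase off, was at 43.2 to 129 CPM in vehicle (median 64.5) and 9.79 to 47 CPM under CKI (median 19.1), an effect of -1.85 ± 0.17, adjusted p = 3.82e-05. Slc2a1, the glucose transporter GLUT1, had an effect of -1.36 ± 0.14, adjusted p = 5.42e-05. Gpi1 (-1.29 ± 0.15), Pfkl (-1.17 ± 0.17), Tpi1 (-0.79 ± 0.13), Gapdh (-1.13 ± 0.12), Eno1 (-1.02 ± 0.13) and Pkm2 (-1.23 ± 0.15), enzymes from the first steps of the pathway to the last, made up the rest of the 8. Gapdh, often taken as a reference gene, went from a median of 1219 CPM to 537.

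Pfkfb3, which makes an activator of phosphofructokinase, was the exception and rose in 12 lines (1.33 ± 0.22, adjusted p = 0.000779). Slc16a3, a lactate exporter (-2.13 ± 0.49), and Egln3, an oxygen-sensing hydroxylase (-3.04 ± 0.66), fell in 10 and 11 lines. Vegfa (0.02 ± 0.16), Hk2 (0.04 ± 0.41) and Car9 (-0.39 ± 0.68) did not pass the test. They stand in the same list as the falls above, and genes that hypoxia induces were not tested as a separate set.

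Amino acid supply genes fell in part. Of 17 genes of serine and one-carbon metabolism and the integrated stress response, 9 fell and 1 rose (median -0.81). The amino acid transporters Slc7a11, which brings in cystine, and Slc7a5, which brings in leucine, were lower in 12 lines. The smallest fall of Slc7a5 in a line was 0.03, and under RLE scaling 1 gene of the list was lower in all 12 lines. Slc7a11 went from a median of 72.3 to 16.3 CPM (-2.23 ± 0.49, adjusted p = 0.00371) and Slc7a5 from 566 to 91 (-1.73 ± 0.42). Aldh1l2, a mitochondrial folate enzyme, had the largest effect of the list, -3.37 ± 0.57, and was higher in 2 lines. Shmt2 (-1.21 ± 0.25) and Psat1 (-1.36 ± 0.29) fell in 11 lines. The list's median change ran from -2.91 in BA49112 to 0.11 in BS53958. Slc1a5, a glutamine transporter outside the list, was lower in 11 lines (-1.52 ± 0.18, adjusted p = 0.000149), BS53958 excepted.

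Protein folding genes gave few shared changes. In the unfolded protein response, 5 of 15 genes fell and 1, Herpud1, rose (0.53 ± 0.13), and none moved one way in all 12 lines. Among 15 heat shock and acute stress genes, 4 rose and 4 fell, shares near the 21.5% higher and 20.6% lower of all genes tested. Hspb1 rose in 11 lines (1.44 ± 0.22, adjusted p = 0.000586), and the mitochondrial chaperones Hspd1 (-0.78 ± 0.17) and Hspe1 (-0.62 ± 0.13) were lower in 11. Of 6 genes of the mitochondrial genome tested, 1 fell, mt-Nd2 (-0.37 ± 0.12).

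Most thyroid differentiation genes tested rose in the common fit, with large differences between lines. Of 16 tested, 11 rose and 1, Slc5a5, fell, with a median of 1.42, and 3 were higher in all 12 lines. Tg, which encodes thyroglobulin, the protein on which thyroid hormone is made, was at 0.379 to 17.8 CPM in vehicle (median 1.62) and 0.779 to 637 CPM under CKI (median 61.1), an effect of 4.14 ± 0.74, adjusted p = 0.00124. AB51189 had the highest CKI level, and BS53736 and BS53965 the lowest, 0.779 and 0.899 CPM. In BS53965, with 2884130 counts under CKI, that level and the rise rest on a few reads. Glis3, a transcription factor needed for hormone synthesis, rose from a median of 21.1 to 104 CPM (2.19 ± 0.30, adjusted p = 0.000286). Lrp2, described above, was the third gene higher in all 12 lines, and without BS53958, 6 of the 16 were higher in every line left.

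The lineage transcription factors Pax8 and Nkx2-1 were present before treatment and rose moderately. Pax8 was at 3.53 to 146 CPM in vehicle and 4.13 to 379 CPM under CKI (0.80 ± 0.15, adjusted p = 0.00166), and Nkx2-1 at 12.3 to 224 CPM and then 24 to 253 CPM (1.07 ± 0.24, adjusted p = 0.00408). Each was higher in 11 lines, and AB55694 was the exception for both. Tshr, the TSH receptor gene, was below 2 CPM in every vehicle library and reached 179 CPM under CKI (4.82 ± 0.89, adjusted p = 0.00141), yet it stayed under 1 CPM in 6 lines, at 0.755 and 0.42 CPM in the Braf lines B47275 and B48051, at 0.136 in AB52980 and in the 3 Smarcb1 KO lines at 0.369, 0 and 0.30. Slc26a7, an anion transporter of the follicular cell (3.35 ± 0.61), the deiodinase gene Dio2 (1.93 ± 0.62) and the hormone receptor genes Thra (0.93 ± 0.24) and Thrb (1.77 ± 0.67) also rose.

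The iodide transporter gene Slc5a5 stayed at 1.84 CPM or less in all 24 libraries and was called lower (-0.93 ± 0.35, adjusted p = 0.0466), a call lost under RLE scaling and without BS53958. Foxe1 (0.59 ± 0.49), Hhex (-0.37 ± 0.21), Duox1 (0.22 ± 0.30) and Duoxa1 (0.08 ± 0.54) did not pass the test. Dio1, Iyd, Duox2, Duoxa2 and Slc26a4 were too low to be tested. Of the defining markers of the labelled tissue, the transcription factors Pax8 and Nkx2-1 were therefore present, and the enzymes Dio1 and Iyd were at or near 0 in both arms.

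**Figure D4:**
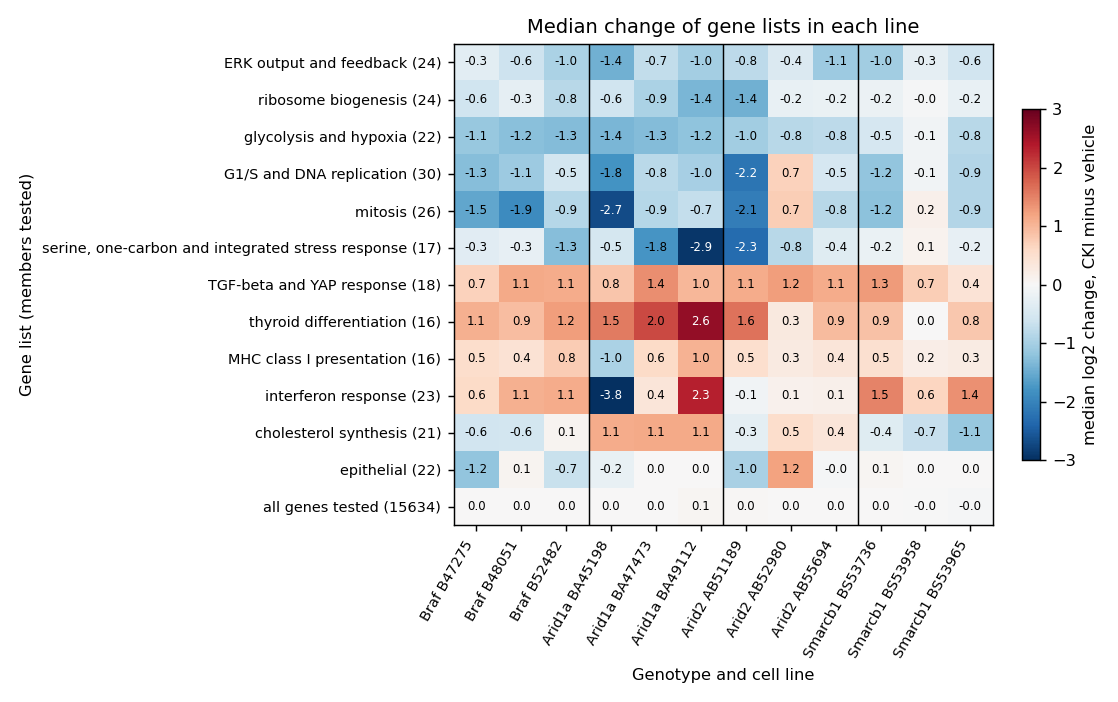
Median log2 change (CKI minus vehicle, color and printed value) of the tested members of 12 gene lists and of all genes tested (rows, with the number of members), in each of the 12 lines (columns, by genotype). ERK output, ribosome biogenesis, glycolysis and hypoxia, and TGF-beta and YAP response keep 1 sign in all lines, mitosis is positive in AB52980 and BS53958, and cholesterol synthesis splits by line.

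Most genes of the TGF-beta and YAP response rose, but not all. Of 18 tested, 11 rose and 2, Tgfb1 (-1.28 ± 0.14) and the receptor gene Tgfbr1 (-0.41 ± 0.06), fell, with a median of 0.86, and 7 were higher and 2 lower in all 12 lines. Every line had a positive median for the list, from 0.42 in BS53965 to 1.40 in BA47473. Amotl2, which binds and restrains YAP, was at 45.6 to 159.7 CPM in vehicle (median 93.8) and 95.2 to 597 CPM under CKI (median 358), an effect of 1.77 ± 0.17, adjusted p = 3.82e-05. Lats2, the kinase that inhibits YAP, rose in all lines (1.06 ± 0.10, adjusted p = 4.32e-05). Ctgf (3.07 ± 0.41) and Cyr61 (1.88 ± 0.25), matrix proteins that YAP induces, and Smad6, an inhibitor of BMP signaling (2.47 ± 0.34), also rose in 12 lines, as did Tgfb2.

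The 2 falls of the list were a ligand and a receptor. Tgfb1 was at 9.62 to 90.0 CPM in vehicle and 2.4 to 39.4 CPM under CKI (-1.28 ± 0.14, adjusted p = 0.000123), lower in 12 lines, and Tgfbr1 had an effect of -0.41 ± 0.06. The ligand genes Tgfb1 and Tgfb2 thus moved in opposite directions in all 12 lines. Tgfb3 (-0.21 ± 0.20) and Tgfbr2 (-0.10 ± 0.26) did not pass the test.

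Matrix and contractile genes had some of the largest common effects, and those effects were not shared by all lines. Of 28 matrix and protease genes, 11 rose and 6 fell, against 21.5% and 20.6% of all genes tested, so the share that fell was near that of all genes. Col12a1 was the member higher in all 12 lines, from a median of 67.9 to 1512 CPM (3.29 ± 0.51, adjusted p = 0.000565). The protease inhibitor gene Timp1 was lower in 12 lines (-2.41 ± 0.50, adjusted p = 0.00267), and Mmp13, a collagenase (-2.83 ± 0.53), and Plaur, the urokinase receptor (-1.85 ± 0.43), in 11. Col1a1 rose by 6.49 ± 0.96, from a median of 1.39 to 356 CPM, but had no counts in the CKI library of BS53965 and 0.168 CPM in that of BS53958. Of 20 mesenchymal and contractile genes, 6 rose and 2 fell. Acta2, smooth muscle actin, was at 0 to 3.09 CPM in vehicle (median 0.0439) and 0 to 1152 CPM under CKI (median 36.6), an effect of 9.60 ± 0.75, adjusted p = 9.73e-06, and in the 3 Smarcb1 KO lines its CKI level was 0.123, 0.168 and 0 CPM. Cnn1 (4.55 ± 0.75), Lmod1 (4.24 ± 0.60) and Myl9 (4.33 ± 0.68), further genes of smooth muscle contraction, rose in 11, 11 and 10 lines. The fitted changes of genes with few or no counts in an arm, such as Acta2, Col1a1, Igf1, Il6 and S100a8, depend on the prior count and are no measure of a true fold. Vim (-0.34 ± 0.14), Zeb1 (0.05 ± 0.27) and Fn1 (-0.30 ± 0.48) did not pass the test.

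Mcam, a cell adhesion molecule of vessel walls and of tumors, rose in 11 lines (3.03 ± 0.31, adjusted p = 5.79e-05) and was lower in BS53965 (-1.24). S100a8, a calcium-binding protein of myeloid and inflamed epithelial cells, was lower in 11 lines (-6.22 ± 0.69, adjusted p = 0.000149), was at 20.7 CPM at most, and had no counts in B47275. These 2 genes, Acta2 and Slc1a5 had the smallest adjusted p among genes that failed to move the shared way in exactly 1 line. In all, 2052 called genes had exactly 1 such line. That line was BS53958 for 526 genes and AB52980 for 409, against 19 for BA49112.

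Markers of other cell types moved beside these genes, and in bulk RNA, more cells of a type and more RNA per cell cannot be told apart. The summed level of 10 fibroblast markers ran from 6.06 to 3776 CPM in vehicle (median 80.8) and from 15.2 to 10010 CPM under CKI (median 1082), with 6 of 10 called higher and none at 0 in all libraries of an arm. Of these markers Col1a1, Col1a2 and Col3a1 also stand in the matrix list. The sum of 9 leukocyte markers stayed at 111 CPM or less, with Csf1r, Cd74 and Lyz2 called higher, and Ptprc, Cd3e, Tyrobp and Itgam were too low to be tested. The 10 endothelial markers reached 667.5 CPM in 1 vehicle library (BS53965) and had a median of 4.78 CPM in vehicle and 4.58 under CKI. Skeletal muscle markers reached 1795 CPM in the CKI library of AB52980, against a median of 2.57, and Acta1 (2.53 ± 0.32) and Tnnt3 (1.72 ± 0.56) were called higher. Adipocyte markers reached 331 CPM in BA45198 under CKI, with Lpl and Pparg called higher and the other 6 of 8 markers, Adipoq among them, too low to be tested. Of 7 C cell markers, which summed to 33.2 CPM at most, Chgb was called higher and Calcb lower, and of 7 endothelial markers tested Cdh5 was called lower. No marker of red blood cells or parathyroid was tested, and their sums reached 6.46 and 0.4685 CPM in any library. The part of such cells in the changes above was not tested.

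Keratins and other epithelial genes gave no shared change. Of 22 tested, 2 rose and 3 fell, none in all 12 lines. Cdh16, a cadherin of thyroid and kidney epithelium, rose in 11 lines (4.62 ± 0.74, adjusted p = 0.000673), and Krt18 fell in 9 (-2.71 ± 0.78). Cdh1 (-0.26 ± 0.39) and Epcam (-0.40 ± 0.46) did not pass the test. The list's median change was 1.20 in AB52980 and -1.19 in B47275.

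For Wnt and Notch response genes, 5 of 17 rose and 2 fell, against 21.5% and 20.6% of all genes tested. Hey1 (3.24 ± 0.42), a Notch target, and Notch3 (1.62 ± 0.33) rose in all 12 lines, although Hey1 reached only 2.47 CPM. The Notch ligand gene Jag1 rose in 11 lines (1.42 ± 0.34). Znrf3, a feedback inhibitor of Wnt receptors, was lower in 12 lines (-0.80 ± 0.14, adjusted p = 0.000924), and Axin2, a Wnt target, in 10 (-1.81 ± 0.50).

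Among regulators of cell death, 5 of 14 genes of the Bcl2 family rose and none fell. Bbc3, which encodes the death-promoting protein PUMA, was at 11.3 to 52.9 CPM in vehicle and at 13.8 to 79.7 CPM under CKI, higher in 12 lines (0.56 ± 0.11, adjusted p = 0.00229). Mcl1, which opposes cell death, rose in 11 lines (0.52 ± 0.10). Bcl2l11, the gene for BIM, had an effect of 0.33 ± 0.15, adjusted p = 0.088 and did not pass the test. Of 16 genes induced by p53, 3 rose and 1 fell, against 21.5% higher and 20.6% lower of all genes tested, so the share that rose was near that of all genes. The death receptor gene Fas was higher in 12 lines, from a median of 3.38 to 18.1 CPM (1.99 ± 0.28, adjusted p = 0.000345), while Mdm2 (-0.08 ± 0.19) and Cdkn1a gave no call. Of 16 FoxO target genes, 6 rose and none fell, and Pik3ip1, an inhibitor of PI3 kinase, was higher in all 12 (1.85 ± 0.24, adjusted p = 0.000232).

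Of 27 lysosome and autophagy genes tested, 8 rose and 2 fell, against 21.5% and 20.6% of all genes tested, with a median of 0.13. Gabarapl1, which coats autophagosomes, was at 52.5 to 105 CPM in vehicle and 83 to 192 CPM under CKI (0.78 ± 0.10, adjusted p = 0.000209), and Ulk1, the kinase that starts autophagy, at 51.6 to 103 CPM and then 71.1 to 125 CPM (0.51 ± 0.06, adjusted p = 0.000211). Both were higher in all 12 lines, as was Atp6v1h, a subunit of the proton pump, by a small amount (0.27 ± 0.06). The protease genes Ctsl (-1.06 ± 0.30) and Ctsh (-1.03 ± 0.23) fell.

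Antigen presentation genes rose in part, and interferon genes split by line. Of 16 genes of MHC class I presentation, 9 rose and none fell, with a median of 0.48. In BA45198, however, 12 of the 16 were lower, with a median change of -0.95, while the list's median was positive in every other line. Tapbp, which loads peptides, was at 25.1 to 162 CPM in vehicle and 108 to 279.7 CPM under CKI, higher in 12 lines (1.18 ± 0.25, adjusted p = 0.00263). Erap1, a peptide-trimming enzyme (0.54 ± 0.11), and Psmb9, an immunoproteasome subunit (1.25 ± 0.39), were higher in 12 lines as well, Psmb9 from a median of 0.303 CPM. H2-K1 (-0.44 ± 0.19) and B2m (-0.11 ± 0.21) did not pass the test.

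Of 23 interferon response genes, 5 rose and 1, Mx1, fell (-2.90 ± 0.80), against 21.5% and 20.6% of all genes tested, and none moved one way in all 12 lines. BA45198 stood apart, with 22 of 23 lower and a median change of -3.78, whereas the list's median was between -0.10 (AB51189) and 2.33 (BA49112) in the others. Irf1 rose in 11 lines (0.86 ± 0.16, adjusted p = 0.00153). Among 18 chemokines and cytokines, 5 rose and 4 fell, shares near those of all genes. Il33, an alarmin, was lower in all 12 lines, from a median of 35.9 to 0.904 CPM (-5.31 ± 1.01, adjusted p = 0.0017), and Cx3cl1, a membrane-bound chemokine, was higher in all 12 (1.94 ± 0.57, adjusted p = 0.0158). Il6 rose in 9 lines but stayed at 16.6 CPM or less (5.78 ± 0.91), and Csf2 fell (-3.57 ± 0.67).

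Cholesterol synthesis gave no call in the common fit, 0 of 21 genes with edgeR, and the lines pulled in opposite directions. In the 3 Arid1a KO lines 21, 20 and 19 of the 21 genes were higher, with a median change of 1.10, 1.13 and 1.15. In the 3 Smarcb1 KO lines 18, 20 and 21 were lower (medians -0.36, -0.69 and -1.13), and in the Braf lines B47275 and B48051 21 and 20 were lower, while B52482 had 11 higher and 10 lower. The Arid2 KO lines were split, with 19 higher in AB52980 (median 0.53), 15 higher in AB55694 (0.37) and 15 lower in AB51189 (-0.29). The smallest adjusted p for a common effect was 0.112 (Sc4mol, -0.58 ± 0.28), and 0 of the 21 had an unadjusted p under 0.05.

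Of 23 SWI/SNF subunit genes tested, 4 rose and 4 fell, shares near the 21.5% higher and 20.6% lower of all genes tested. Arid1b, which can stand in for Arid1a in the complex, was at 64.8 to 160.4 CPM in vehicle and at 77.1 to 228 CPM under CKI, higher in 12 lines (0.43 ± 0.05, adjusted p = 0.000176). The ATPase gene Smarca2 (1.11 ± 0.21, adjusted p = 0.00174) and Arid2 (0.30 ± 0.06) were higher in 12 lines too, and Pbrm1 fell in 11 (-0.38 ± 0.07). The other ATPase gene, Smarca4 (-0.08 ± 0.06), did not pass the test.

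How well the response of a line could be read from the others was examined by calling genes without that line. Of the genes called higher from the other 11 lines, between 51.9% (BS53958) and 94.6% (BA49112) were higher in the line left out, against 37 to 50.9% of all genes tested. Of those called lower, between 67% (AB52980) and 94.8% (BA49112) were lower, against 46.6 to 57.7%. The share exceeded that of all genes in each of the 12 lines and in both directions. The smallest margin was in BS53958, where the median change of the genes called higher was 0.02.

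**Figure D5:**
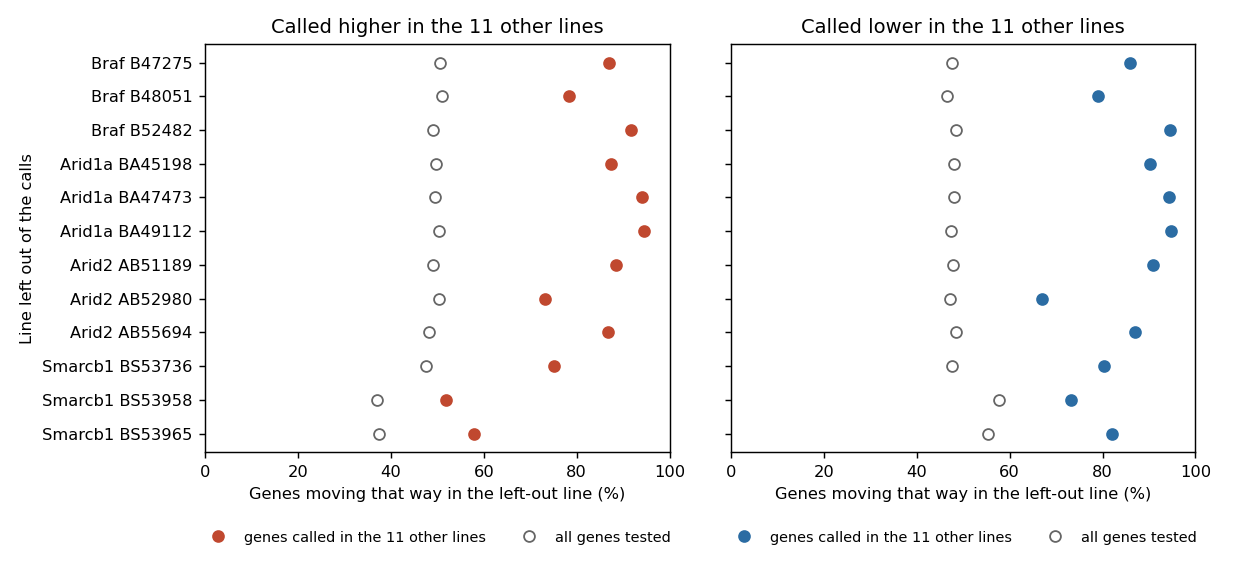
Percentage of genes moving the called way in the line left out of the calls (filled points) and of all genes tested (open points), for genes called higher (left) and lower (right) from the other 11 lines. Filled points lie to the right of the open points in every line, with the Arid1a KO lines BA47473 and BA49112 the farthest and BS53958 the nearest on the left.

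When a whole genotype was left out, the 3 Arid1a KO lines all moved the called way for 81.3% of genes called higher and 84.7% called lower in the other 9 lines, against 33.3% and 31.2% of all genes. The 3 Braf lines did so for 70.7% and 70.7% (25.9% and 23.6% of all genes) and the 3 Arid2 KO lines for 62.9% and 55.5% (23.3% and 21.2%). The 3 Smarcb1 KO lines did so for 27.4% and 52.5% (13.1% and 25.5%). Their CKI libraries include the 2 shallow ones, in which many genes had few or no counts, and the part of depth in these shares was not tested here. The lines also differed in the size of the shared response. The median change of the 615 shared rises was 1.29 in BA49112 and 0.40 in BS53958, and that of the 745 shared falls -1.02 and -0.24.

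The genotypes were also fitted with a CKI effect each. Arid1a KO lines then gave 5053 called genes, Arid2 KO lines 981, Braf lines 388 and Smarcb1 KO lines 165, and 20 genes were called in the same direction in all 4. Each effect rests on 3 lines, while its spread was fitted over all 12 lines together. These counts are no test of a difference. In the test of the difference itself, 63 of 15634 genes responded differently among the genotypes (0.403%). They included 9 of the 1360 shared genes (0.662%) and 25 of the 5211 other called genes (0.48%). The count of 63 depends on single lines. It was 8 without BA47473, 19 without BS53965, 21 without BA49112, 33 without BA45198 and 35 without AB55694, but 95 without AB51189 and 192 without B52482.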

How the data were processed

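RNA of 24 libraries, 12 cell lines in vehicle and under CKI, was measured by RNA sequencing. The authors deposited raw read counts per gene for mm9, and the submitters' processing notes name STAR 2.4, HTSeq 0.6.1 and DESeq2, with no role for each given in the sources used here. The labels' protocols name TRIzol extraction and the TruSeq RNA kit, and whether strand was used in counting is not given, so overlapping genes cannot be told apart. The table holds 33924 genes, of which 15634 passed edgeR's filterByExpr and were tested. Libraries ranged from 2884130 to 27257703 counts, and the shallow libraries limit the precision for low genes.

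The common effect of CKI was fitted to the counts with edgeR 4.0.16 (R 4.3.3, TMM scaling, quasi-likelihood F test, line as a block, 11 residual degrees of freedom, Benjamini-Hochberg adjustment over all genes tested). Standard errors are the log2 change divided by the square root of F and are approximate. Changes per line used a prior count of 2, and a gene with no counts in both libraries of a line counted as unmoved there. Fits with a CKI effect per genotype had 8 residual degrees of freedom, and the difference among genotypes was tested on 3 terms. The line identifier in the labels pairs the libraries: the correlation of vehicle and CKI deviations within a line was between 0.259 and 0.773. The fitting was tested on simulated data.

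The members and the 36 gene lists were chosen with earlier results of these data known. Named genes are the 12 rises and 12 falls with the largest change in their weakest line (average log2 CPM of at least 2), the ERK output and thyroid lists, up to 4 called members of each other list, the 6 shared genes that differ most among genotypes, and the 4 called genes with 1 line the other way and the smallest adjusted p. Others, such as members that were not called, were named after their values were seen. Some genes of these lists, among them 1 of the 12 rises, are counted but not reported here by name. Promoters came from RefSeq (GRCm38.p6) by symbol. Alternatives covered scaling, filtering, DESeq2 1.42.0, the replicate block, left-out lines, thinning and the prior count.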

Additional observations from a re-analysis of the deposited data

Results flagged for a closer look

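The CKI response of 8 named genes differed among the 4 genotypes in the test of that difference (edgeR, 3 terms, adjusted over 15634 genes). Most of them, such as Cd47 and Fst, were named because they were among the shared genes that differed most in this same test. Their number is therefore not to be read against the 0.403% of all genes tested that passed. Each value below is a log2 change over 3 lines, with a standard error from the fit over all 12 lines.

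AA467197, 1 of the 12 largest shared falls, was lower in 12 lines, with -2.61 ± 0.34 in the Braf lines, -5.23 ± 0.39 with Arid1a KO, -6.66 ± 0.30 with Arid2 KO and -4.14 ± 0.31 with Smarcb1 KO (adjusted p = 0.0152). Dusp4, the nuclear ERK phosphatase, was lower in 11 lines, with -2.48 ± 0.19 in the Braf lines, -2.59 ± 0.19 with Arid1a KO, -2.29 ± 0.19 with Arid2 KO and -0.38 ± 0.20 with Smarcb1 KO (adjusted p = 0.0196). Lpl, lipoprotein lipase, which stands in the adipocyte marker list, was higher in 11 lines, with 1.57 ± 0.61 in the Braf lines, 8.56 ± 0.51 with Arid1a KO, 1.67 ± 1.30 with Arid2 KO and -0.18 ± 0.76 with Smarcb1 KO (adjusted p = 0.00925).

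Cd47, which encodes a cell surface signal against phagocytosis, was higher in 12 lines, with 0.42 ± 0.12 in the Braf lines, 2.03 ± 0.12 with Arid1a KO, 0.27 ± 0.12 with Arid2 KO and 0.37 ± 0.12 with Smarcb1 KO (adjusted p = 0.00729). Fst, which encodes the activin antagonist follistatin, was higher in 12 lines, with 0.58 ± 0.43 in the Braf lines, 5.79 ± 0.58 with Arid1a KO, 0.78 ± 0.43 with Arid2 KO and 3.78 ± 0.49 with Smarcb1 KO (adjusted p = 0.0207). The unnamed gene C630004H02Rik was lower in 12 lines, with -0.86 ± 0.29 in the Braf lines, -4.15 ± 0.34 with Arid1a KO, -1.29 ± 0.30 with Arid2 KO and -0.83 ± 0.30 with Smarcb1 KO (adjusted p = 0.0213). For Cd47, Fst and C630004H02Rik the genotypes differed in the size of the fitted change, not in its direction. The same held for AA467197 and Dusp4 above and for Aff1 and Arhgef10 below. For Lpl the fitted change with Smarcb1 KO had the other sign, within its standard error.

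Aff1, a scaffold of transcription elongation complexes, was higher in 12 lines, with 1.24 ± 0.15 in the Braf lines, 2.39 ± 0.16 with Arid1a KO, 1.23 ± 0.15 with Arid2 KO and 0.57 ± 0.15 with Smarcb1 KO (adjusted p = 0.0215). Arhgef10, a guanine nucleotide exchange factor, was higher in 12 lines, with 0.72 ± 0.14 in the Braf lines, 1.71 ± 0.14 with Arid1a KO, 0.44 ± 0.14 with Arid2 KO and 0.44 ± 0.14 with Smarcb1 KO (adjusted p = 0.0438).

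The count of such genes depends on single lines, as given with the processing alternatives.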

How the results depend on the processing

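Without the replicate block, which pairs the 2 libraries of a line, 2121 genes were called higher and 2132 lower. With edgeR, 0 genes then differed among genotypes. At an unadjusted p under 0.05, 1010 of 15634 genes did, where a share of 0.05 would pass with no difference. With the block, the count that differed among genotypes was 158 with no filter on low counts and 1464 with DESeq2. Without BS53958 and BS53965 together, 1286 and 1193 genes were called and moved one way in every line left, 70 and 35 of them past 2-fold, and 12 genes differed among genotypes. With every library thinned to 2884130 counts, 1109 were called higher and 1120 lower, 229 and 225 of these in all 12 lines, 2 and 6 genes were past 2-fold in every line, and 14 differed among genotypes, with 12922 genes tested. At that depth fewer genes were called.

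Leaving out 1 line at a time gave 2755 to 3529 genes called higher and 2784 to 3359 lower, 610 to 896 and 780 to 1089 of them in every line left, 16 to 40 and 13 to 28 genes past 2-fold in every line, and 8 to 192 genes that differed among genotypes. The last count, 63 with all lines, was 192 without B52482, 95 without AB51189, 35 without AB55694, 33 without BA45198, 21 without BA49112, 19 without BS53965 and 8 without BA47473. The count past 2-fold was 40 higher and 28 lower without BS53958, and 22 lower without B48051. Other settings kept each of these counts within 1.5 times.

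The filter at 1 CPM in 6 libraries and the thinning left some named genes untested. Of 173 named genes, 163 were called, and 111 of those stayed called in the same direction under every setting that tested them. Those that reversed were not called: Duoxa1 (-0.38 without the block, -0.43 with an effect per genotype averaged, -0.21 to 0.32 on leaving out 1 line), Phlda1 (-0.071 to 0.20) and Spred1 (-0.12 to 0.045, and 0.049 without BS53958 and BS53965). The cause was not tested.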

Other observations

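Several families outside the lists above were described after their values were seen, by gene symbol, so their counts are descriptions and are read against 21.5% of all genes called higher and 20.6% called lower. Genes of the ribosome itself fell: 74 of 78 cytosolic ribosomal protein genes tested were called lower, with a median effect of -0.58, and 33 were lower in all 12 lines. With RLE scaling 73 were called lower and 23 were lower in all 12. The family's median change lay between -1.19 (BA45198) and -0.01 (BS53958). Of 72 mitochondrial ribosomal protein genes, 45 were called lower and 14 were lower in all 12 lines, and of 60 translation initiation factor genes 32 were called lower and 8 higher. Of 27 RNA polymerase subunits, 13 were called lower and 2 higher. Ribosomal protein genes have many processed copies in the genome, and how reads shared with these were counted is not given in the sources used here.

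Collagen genes rose, 21 of 38 tested, with 6 higher in all 12 lines and a median effect of 1.68. The fibroblast markers given above moved in the same libraries, and their part was not tested. Of 21 clustered protocadherin genes of the beta group, which encode adhesion proteins best known from neurons, 20 were called higher and 7 were higher in all 12 lines, with a median effect of 1.09. These genes are near-identical copies in places, so reads may be shared among them. Of 24 histone genes 17 were called higher, with a median effect of 1.24, and 5 were higher in all 12 lines, although the replication genes described above fell. Of 12 circadian clock genes 8 were called higher (median 0.75), and of 14 clade B serpins, intracellular protease inhibitors, 7 were called higher and 1 lower (median 1.42).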
